A study of Mus musculus with 32 samples.

Results

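DNA replication and entry into S phase were followed here through 44 mouse genes, chosen by name for what their products do. They comprise 11 genes of origin licensing, 7 of origin firing, 17 of the replication fork and the assembly of chromatin behind it, 5 of nucleotide supply, and 4 E2F or chromatin copying genes. Each was matched to the arrays by its gene symbol. The 72 h arrays measured 43 of them among 17097 genes, the 48 h arrays 43 among 22180 genes, and 42 were measured on both. Chaf1a had no probe set of its own at 72 h, and the only Rfc4 probe set at 48 h is shared with Eif4a2.

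The cells were CD4+ T cells of Balb/c mice with the DO11.10 T cell receptor transgene, taken from cervical and axial lymph nodes. That receptor recognises an ovalbumin (OVA) peptide. They were cultured with macrophages taken from the peritoneal cavity after thioglycollate, and viable CD4+ singlets were then sorted, so every array holds cells that had been in contact with such macrophages. At 72 h in full medium there were 3 arrays of T cells given antigen on macrophages that had been pretreated with IL-4 and IL-10, 3 given antigen on untreated macrophages, and 3 left without antigen. At 48 h there were 3 arrays each of T cells given antigen on pretreated macrophages, in medium with 1% of the normal arginine, in medium with 1% of the normal leucine, in medium with 1% of the normal lysine, and in full medium on untreated macrophages. The arrays without antigen at 48 h analysed here came from the low media, 2 from low arginine, 3 from low leucine and 3 from low lysine. The pretreatment was 10 ng/mL of each cytokine for 12 to 16 h, followed by washing. It is named in the labels as a way to induce arginase-1 in the macrophages, so the design sets macrophages with that enzyme beside media with little of 1 amino acid. The labels do not say whether replicates came from separate mice or cultures, so p-values measure only the spread between these arrays, which may be technical.

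A cell copies its genome once per division. In G1 the origin recognition complex (Orc1 to Orc6), Cdc6 and Cdt1 load the ring-shaped Mcm2 to Mcm7 helicase on DNA, which licenses the origin, and geminin (Gmnn) later blocks Cdt1 so that licensing is not repeated. The Cdc7 kinase with its partner Dbf4, together with Mcm10, Cdc45 and the GINS proteins, turns the loaded helicase into a moving fork. Many of these genes are targets of E2F transcription factors, which are released from the retinoblastoma protein as cells leave quiescence. A resting lymphocyte has little of this machinery and builds it after its antigen receptor is engaged.

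The promoters of these genes were compared through the letters TTTNNCGC, a form of the E2F site, searched on both strands from 250 bases before to 50 bases after each annotated start in RefSeq sequence of build GRCm38.p6. Windows were found for 37 of the members, and 15 of these genes, or 40.5%, held the letters, against 5.93% of 27025 genes with a window. The letters TTTGAA, the core of an element known from genes expressed in G2 and mitosis, stood in 20.5% of the members' windows, against 71.4% of the windows of 21 mitosis genes and 17.9% of all windows. CCAAT was found in 56.8% of the members' windows, against 81.0% of the mitosis genes' windows and 37.4% of all windows. A match describes the letters in this window and is not evidence of binding. The TTTNNCGC matches lay before the start site in 9 members, and 5 of them are printed with 20 bases on either side where the stretch allows, because the licensing factors and Uhrf1 carry much of what follows. These 5 were picked after their expression had been seen. Capitals mark the match on either strand, and each sequence runs 5′ to 3′ on the strand of its gene.
Cdc6: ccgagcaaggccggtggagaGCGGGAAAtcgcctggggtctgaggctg
Orc1: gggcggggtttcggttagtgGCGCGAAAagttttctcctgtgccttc
Mcm5: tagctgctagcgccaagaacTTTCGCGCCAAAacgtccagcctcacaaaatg
Mcm6: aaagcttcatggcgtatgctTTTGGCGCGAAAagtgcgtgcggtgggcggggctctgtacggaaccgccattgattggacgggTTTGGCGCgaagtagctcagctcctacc
Uhrf1: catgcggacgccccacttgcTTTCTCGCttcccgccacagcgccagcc
The Cdc6 stretch lies at chr11:98907993-98908040 on the plus strand, with its match 138 bases before the start. The Orc1 stretch is chr4:108579407-108579453 on the plus strand, 27 bases before the start. Mcm5 held 2 overlapping matches within chr8:75109336-75109387 on the plus strand, the first 153 bases before the start. Mcm6 held 3 matches, of which 2 overlap, within chr1:128359725-128359835 on the minus strand, between 110 and 47 bases before the start. The Uhrf1 stretch is chr17:56303261-56303308 on the plus strand, 56 bases before the start of 1 of its annotated transcripts.

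All values are log2 levels per gene as the authors normalised them (RMA), so a difference of 1 is 2-fold, and levels of different genes are not compared. Markers of T cells averaged 9.08 or more on every array. Marker lists of other cells moved with some groups and are given beside the results they accompany. Replicates were unequal in 3 groups. Averaged over the members, the pretreated arrays stood at 7.5, 7.72 and 8.31 at 48 h and at 8.15, 9.24 and 8.85 at 72 h, and the low lysine arrays at 7.51, 8.05 and 8.41. The other antigen groups spanned 8.84 to 8.95 in full medium, 8.71 to 8.87 in low arginine and 8.41 to 8.63 in low leucine at 48 h, and 9.09 to 9.49 at 72 h. The median SD of a member between replicates was 0.419 with pretreatment at 48 h and 0.428 in low lysine, against 0.0937 in full medium. At 72 h it was 0.6 with pretreatment, against 0.252 with antigen on untreated macrophages. The median gene had an SD between 0.129 and 0.201 in every group. The submitters' sample numbers of the full medium and pretreated arrays of 48 h lie apart from those of the low media arrays. The labels do not say what the numbers stand for, and any difference in handling between these arrays and the medium cannot be told apart. Since each array holds RNA from a sorted bulk sample, fewer cells in S phase and less of an RNA per cell cannot be told apart.

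**Figure D1:**
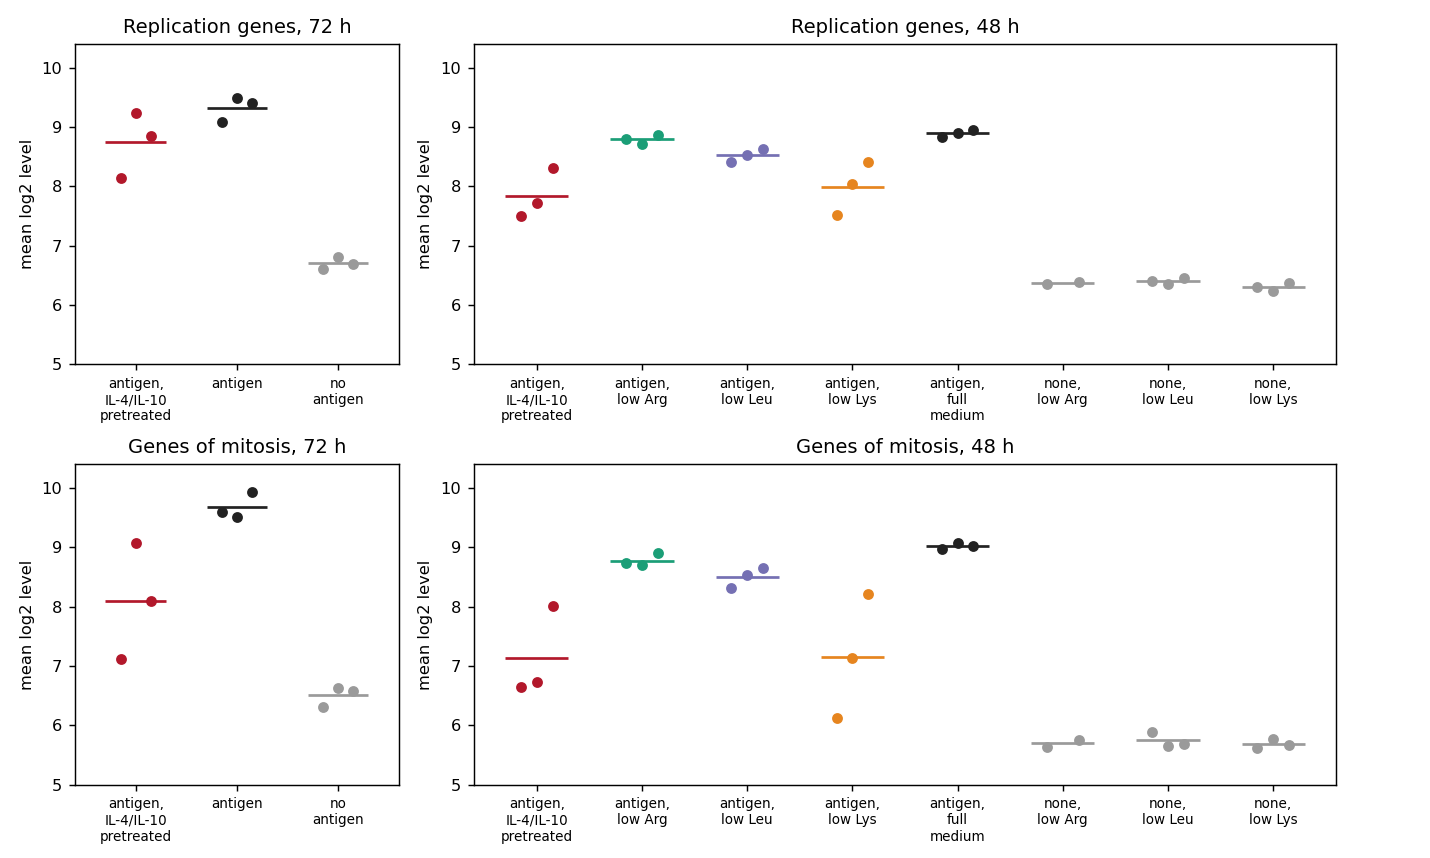
Mean log2 level on each array (points) and per group (lines), over the measured replication members (top) and genes of mitosis (bottom), by group and time. In the top panels the arrays without antigen lie between 6.24 and 6.82, the full medium arrays of 48 h between 8.84 and 8.95, and the pretreated and low lysine arrays are spread between 7.5 and 8.41 at 48 h.

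Antigen on untreated macrophages raised nearly the whole replication machinery by 72 h. Of the 43 measured members 42 rose and none fell, while 20.7% of all genes rose and 17.4% fell (limma's moderated test, Benjamini-Hochberg adjusted p under 0.05 over all genes of the platform). The median member was 2.61 higher on the log2 scale, against 0.02 over all genes, and the antigen arrays lay above all arrays without antigen in 43 of 43 members (25.6% of all genes).

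By role, 10 of 11 licensing genes rose, with 7 of 7 firing genes, 16 of 16 fork genes, 5 of 5 nucleotide genes and 4 of 4 E2F or chromatin copying genes. Cdc6, the loader that closes the helicase around DNA, had levels of 8.57, 9.46 and 9.13 with antigen, against 4.15, 4.25 and 4.41 without. Its difference of 4.78 ± 0.40 (SE, adjusted p = 4.26e-06) was the largest of the members. Every antigen array was more than 4 log2 units above every array without antigen. Orc1, the largest subunit of the origin recognition complex, was at 6.97, 7.60 and 7.35 with antigen, against 3.40, 3.76 and 3.51 without (3.75 ± 0.31, adjusted p = 4.13e-06). A dimmer Orc1 probe set gave 1.71. Geminin rose by 3.35 ± 0.34 (adjusted p = 1.6e-05).

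The helicase subunits rose by less than Cdc6 or Orc1. Mcm6 was at 10.66, 10.92 and 10.93 with antigen, against 8.78, 8.70 and 8.52 without, a difference of 2.17 ± 0.16 (adjusted p = 1.83e-06). Mcm5 was at 9.37, 9.91 and 9.72, against 6.74, 6.67 and 6.24 without antigen (3.12 ± 0.22, adjusted p = 1.24e-06). In both genes the replicates of a group lay close together and the groups did not overlap. Over Mcm2 to Mcm7 the rise ran between 1.81 in Mcm4 and 3.33 in Mcm3. Orc6 was the exception among the members, at 8.32, 8.94 and 8.5 with antigen, against 7.70, 7.76 and 7.90 without (0.80 ± 0.34, adjusted p = 0.0875), and did not pass the test although its arrays did not overlap.

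The 7 firing genes rose by between 2.07 and 4.38, and Mcm10, Gins1 and Cdc45 were 3 of the 5 members with the largest rise. Mcm10, which helps the helicase open, was at 8.52, 9.19 and 8.81 with antigen, against 4.62, 4.37 and 4.38 without (4.38 ± 0.37, adjusted p = 4.63e-06). Gins1, a GINS subunit, was at 8.71, 9.21 and 9.02, against 4.64, 4.85 and 4.84 without antigen (4.20 ± 0.35, adjusted p = 3.85e-06). Cdc45, which joins the helicase ring and GINS at the fork, was at 8.31, 8.58 and 8.57, against 4.12, 4.53 and 4.43 without antigen (4.13 ± 0.40, adjusted p = 1.07e-05). In all 3 the replicates of each group lay within 1 log2 unit of each other and the groups were about 4 units apart. The kinase pair Cdc7 and Dbf4 rose by 2.69 ± 0.29 and 2.31 ± 0.23 (adjusted p = 2.41e-05 and 1.38e-05), and the GINS subunits Gins2 and Gins3 by 2.52 ± 0.31 and 2.07 ± 0.30 (adjusted p = 6.13e-05 and 0.000233).

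The replication fork genes all rose as well. The rise ran between 0.98 in Rpa1, a subunit of the protein that coats single-stranded DNA, and 3.54 in Pole, the catalytic subunit of the leading strand polymerase. Pcna, the sliding clamp, rose by 1.63 ± 0.15 (adjusted p = 7.03e-06), and Rfc4, a subunit of the clamp loader, by 3.39 ± 0.29 (adjusted p = 4.63e-06). Among the nucleotide genes, the small subunit of ribonucleotide reductase (Rrm2) rose by 3.71 ± 0.25 (adjusted p = 1.14e-06) and the large subunit (Rrm1) by 0.87 ± 0.25 (adjusted p = 0.0184). Rrm1 was at 10.30, 10.85 and 10.78 with antigen, against 9.92, 9.62 and 9.78 without, and its groups did not overlap although they were close. E2f8, a repressor of the E2F family that is itself made in S phase, was at 8.43, 8.78 and 9.09 with antigen, against 4.78, 4.90 and 4.59 without (4.01 ± 0.39, adjusted p = 1.16e-05).

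Cell mixture differed between these groups as well. Mesothelial and stromal markers averaged 4.31 to 4.68 on the antigen arrays, against 9.63 to 9.87 without antigen, and 17 of 17 fell. Macrophage markers averaged 3.92 to 3.94 with antigen, against 5.38 to 7.34 without, and 14 of 20 fell. T cell markers averaged 10.03 to 10.47 with antigen, against 9.08 to 9.30 without, and 9 of 12 rose. Their part in the members' rise was not tested.

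T cells given antigen on pretreated macrophages also differed from the cells left without antigen, with 41 of 43 members higher and none lower. Of all genes 16.9% were higher and 15.6% lower. The arrays without antigen carry no pretreatment in their labels, so antigen and pretreatment changed together in this comparison. The median member was 1.89 higher, against 0.04 over all genes. Against the values without antigen given above, Cdc6 stood at 7.41, 9.29 and 8.67 (4.19 ± 0.40, adjusted p = 1.35e-05 by limma). Mcm10 stood at 7.05, 8.82 and 8.22 (3.57 ± 0.37, adjusted p = 2.45e-05 by limma). In both genes every pretreated array was above every array without antigen. Pole was at 7.55, 9.01 and 8.65, against 4.82, 5.16 and 4.90 without antigen (3.44 ± 0.31, adjusted p = 9.16e-06). Cdc45 and Gins1 were higher by 3.50 ± 0.40 and 3.49 ± 0.35 (adjusted p = 4.46e-05 and 1.81e-05). The first replicate was the lowest of the 3 in Cdc6, Mcm10 and Pole. The 2 members not called were Orc6, at 0.41 ± 0.34 (adjusted p = 0.428), and Rrm1, at -0.10 ± 0.25 (adjusted p = 0.834). The markers of other cells moved here as they did on untreated macrophages, with 17 of 17 mesothelial and 12 of 20 macrophage markers lower than without antigen, and their part was not tested.

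At 48 h the antigen comparison was made within each low medium, and the rise was again near complete. In low arginine 42 of 43 members rose, in low leucine 42 and in low lysine 39, and none fell, while 17.2%, 21.8% and 18.4% of all genes rose and 12.2%, 19.5% and 12.6% fell. The median member was 2.33, 2.13 and 1.71 higher, against medians over all genes of -0.12, -0.13 and -0.09. Members not called were Fen1 in low arginine (0.46 ± 0.22, adjusted p = 0.117), Rpa1 in low leucine (0.39 ± 0.16, adjusted p = 0.0575), and Gins3, Rpa1, E2f1 and E2f2 in low lysine. Gins3 was at 6.26, 6.90 and 7.25 with antigen in low lysine, against 6.87, 6.43 and 6.45 without (0.22 ± 0.30, adjusted p = 0.611). Rpa1 was at 8.14, 8.44 and 8.74, against 8.56, 8.40 and 8.56 without antigen (-0.06 ± 0.16, adjusted p = 0.793). The groups overlapped in both genes. E2f1 was at 6.32, 6.25 and 6.88, against 6.06, 5.97 and 6.18 without antigen (adjusted p = 0.115 by limma), with no overlap.

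Rrm2 led in low arginine, at 10.01, 9.82 and 9.66 with antigen, against 5.33 and 4.99 without (4.67 ± 0.42, adjusted p = 1.74e-08). In low leucine it was at 9.34, 9.53 and 9.56, against 5.01, 5.16 and 5.0 without antigen (4.42 ± 0.38, adjusted p = 4.11e-09). In low lysine it was at 6.85, 8.20 and 9.25, against 5.17, 5.22 and 5.48 without antigen (2.81 ± 0.38, adjusted p = 3.72e-06). The antigen arrays of low arginine and low leucine were tight, and those of low lysine were spread over more than 2 log2 units, the lowest still above every array without antigen. Mcm6 was at 10.25, 10.20 and 10.31 with antigen in low arginine, against 5.71 and 6.33 without, and the groups lay far apart. It rose in low arginine by 4.23 ± 0.20 (adjusted p = 5.41e-13), in low leucine by 3.01 ± 0.18 (adjusted p = 9.55e-12) and in low lysine by 3.31 ± 0.18 (adjusted p = 1.87e-12), and was the member with the largest rise in low lysine. Uhrf1, which reads hemimethylated DNA behind the fork so that methylation is copied, rose by 3.89 ± 0.23, 3.80 ± 0.21 and 2.65 ± 0.21 (adjusted p = 2.2e-11, 3.28e-12 and 1.29e-09). The other members among the first 5 of a medium were Pole and Mcm3 in low arginine, E2f8, Pole and the primase subunit Prim1 in low leucine, and Mcm5, Prim1 and Mcm3 in low lysine, with rises between 2.76 and 3.72. E2f2 was at 5.30, 5.46 and 5.71 with antigen in low lysine, against 5.84, 5.13 and 5.21 without (0.10 ± 0.21, adjusted p = 0.751), and its groups overlapped. In low arginine the same gene rose by 1.5 ± 0.23 (adjusted p = 2.91e-05).

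The size of the antigen effect was compared between media with an F test. It was made over 2 differences of antigen effects, those of low leucine and of low lysine from low arginine. No member passed (limma, adjusted p), 17 of 43 had an unadjusted p under 0.05, and the same test called 0.149% of all genes, with 8.93% at the unadjusted level. The smallest p among members was that of Mcm6 (0.000424, adjusted p = 0.0975). The estimated effect was largest in low arginine in 36 of 43 members and smallest in low lysine in 35 of 43. That order was not counted over all genes. Without the third antigen array of low lysine the F test called 5 members. Macrophage markers were lower with antigen in each medium (9, 13 and 10 of 20 in low arginine, leucine and lysine), and mesothelial markers in 8, 12 and 3 of 18. B cell markers averaged 5.961 with antigen in low lysine, against 5.585 without, and 5 of 9 were higher at limma's unadjusted p under 0.05. In low arginine and in low leucine 2 of 9 were lower at that level and none higher. No share of all genes at that level stands beside these counts. At the adjusted level 12.2% and 19.5% of all genes were lower in these 2 media, and 18.4% were higher in low lysine. The part of these markers was not tested.

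At 48 h most replication genes were lower in T cells whose macrophages had been pretreated with the cytokines. Of 43 members 37 fell and none rose, while 5.93% of all genes fell and 2.71% rose. The median member was lower by a log2 difference of -0.95, against 0.01 over all genes, and all pretreated arrays lay below all untreated ones in 40 of 43 members (15.1% of all genes). The 6 members not called were Mcm2, Mcm6, Gins3, Pole, Prim1 and E2f1, each with an estimate between -0.83 and -0.37. Mcm2 was at 8.93, 9.03 and 9.09 with pretreatment, against 9.40, 9.36 and 9.41 on untreated macrophages (-0.37 ± 0.14, adjusted p = 0.109). Pole was at 7.17, 7.39 and 8.26, against 8.23, 8.36 and 8.54 on untreated macrophages (-0.77 ± 0.27, adjusted p = 0.0845). Prim1 was at 8.19, 8.18 and 8.73, against 9.16, 9.06 and 9.0 on untreated macrophages (-0.71 ± 0.25, adjusted p = 0.0905). Gins3, a GINS subunit, was at 6.37, 7.11 and 7.61, against 7.54, 7.80 and 8.26 on untreated macrophages. Pole and Gins3 overlapped through the third pretreated array, while Mcm2 and Prim1 did not. Leaving out 1 array at a time gave counts between 26 and 42.

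The nucleotide genes fell in 5 of 5 cases. Rrm2 was at 7.43, 7.92 and 9.06 with pretreatment, against 9.73, 9.82 and 9.98 on untreated macrophages (-1.71 ± 0.38, adjusted p = 0.00548), and its other probe set gave -1.95. Rrm1 was at 8.08, 8.61 and 9.41, against 10.23, 10.30 and 10.31 on untreated macrophages (-1.58 ± 0.27, adjusted p = 0.000597). In both genes every pretreated array was low and the third the least so. Thymidine kinase (Tk1), thymidylate synthase (Tyms) and dUTPase (Dut) fell, with log2 differences of -1.46 ± 0.24, -1.12 ± 0.26 and -0.85 ± 0.17 (adjusted p = 0.000396, 0.00705 and 0.00236).

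Of the E2F and chromatin copying genes, 3 of 4 fell. E2f8 was at 6.09, 6.67 and 7.44 with pretreatment, against 8.76, 8.94 and 8.91 on untreated macrophages (-2.14 ± 0.37, adjusted p = 0.000635), the largest difference of the members. Uhrf1 was at 7.77, 7.96 and 8.61, against 9.64, 9.78 and 9.82 on untreated macrophages (-1.64 ± 0.21, adjusted p = 2.64e-05). Both genes kept a gap between the groups on every array. E2f1, an activating member of the family, was at 5.98, 6.47 and 6.95, against 6.80, 6.98 and 6.93 on untreated macrophages (-0.43 ± 0.20, adjusted p = 0.208), and its groups overlapped.

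Licensing genes fell in 9 of 11 cases and firing genes in 6 of 7. Cdc6 was at 6.14, 7.01 and 8.22 with pretreatment, against 8.90, 8.85 and 8.92 on untreated macrophages (-1.77 ± 0.39, adjusted p = 0.00469). Mcm10 was at 6.10, 6.73 and 7.72, against 8.40, 8.5 and 8.5 on untreated macrophages (-1.62 ± 0.27, adjusted p = 0.00051). The pretreated arrays differed from each other by up to 2 log2 units in these genes and the untreated arrays hardly at all. The helicase subunits were lower by less, with 4 of 6 called and a median of -0.59. Mcm6 was at 9.53, 9.58 and 10.00, against 10.21, 10.04 and 10.28 on untreated macrophages (-0.47 ± 0.18, adjusted p = 0.106). The 6 subunits were set apart after their values had been seen, so no test was made of that contrast.

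Fork genes fell in 14 of 16 cases, with differences between -1.48 in Chaf1a and -0.61 in Pcna. Chaf1a and Chaf1b, subunits of the chaperone that lays histones on new DNA, differed by -1.48 ± 0.31 and -1.38 ± 0.19 (adjusted p = 0.00314 and 6.33e-05). Rfc5, a clamp loader subunit, differed by -1.36 ± 0.18 (adjusted p = 3.67e-05), and Pola2, a subunit of the polymerase that starts each strand, by -1.29 ± 0.20 (adjusted p = 0.00029). Macrophage markers averaged 6.88 to 7.33 with pretreatment, against 6.51 to 6.57 without, and 9 of 20 rose. T cell markers averaged 10.31 to 10.5 with pretreatment, against 10.25 to 10.30 without. The part of the macrophage RNA in these differences was not tested.

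**Figure D2:**
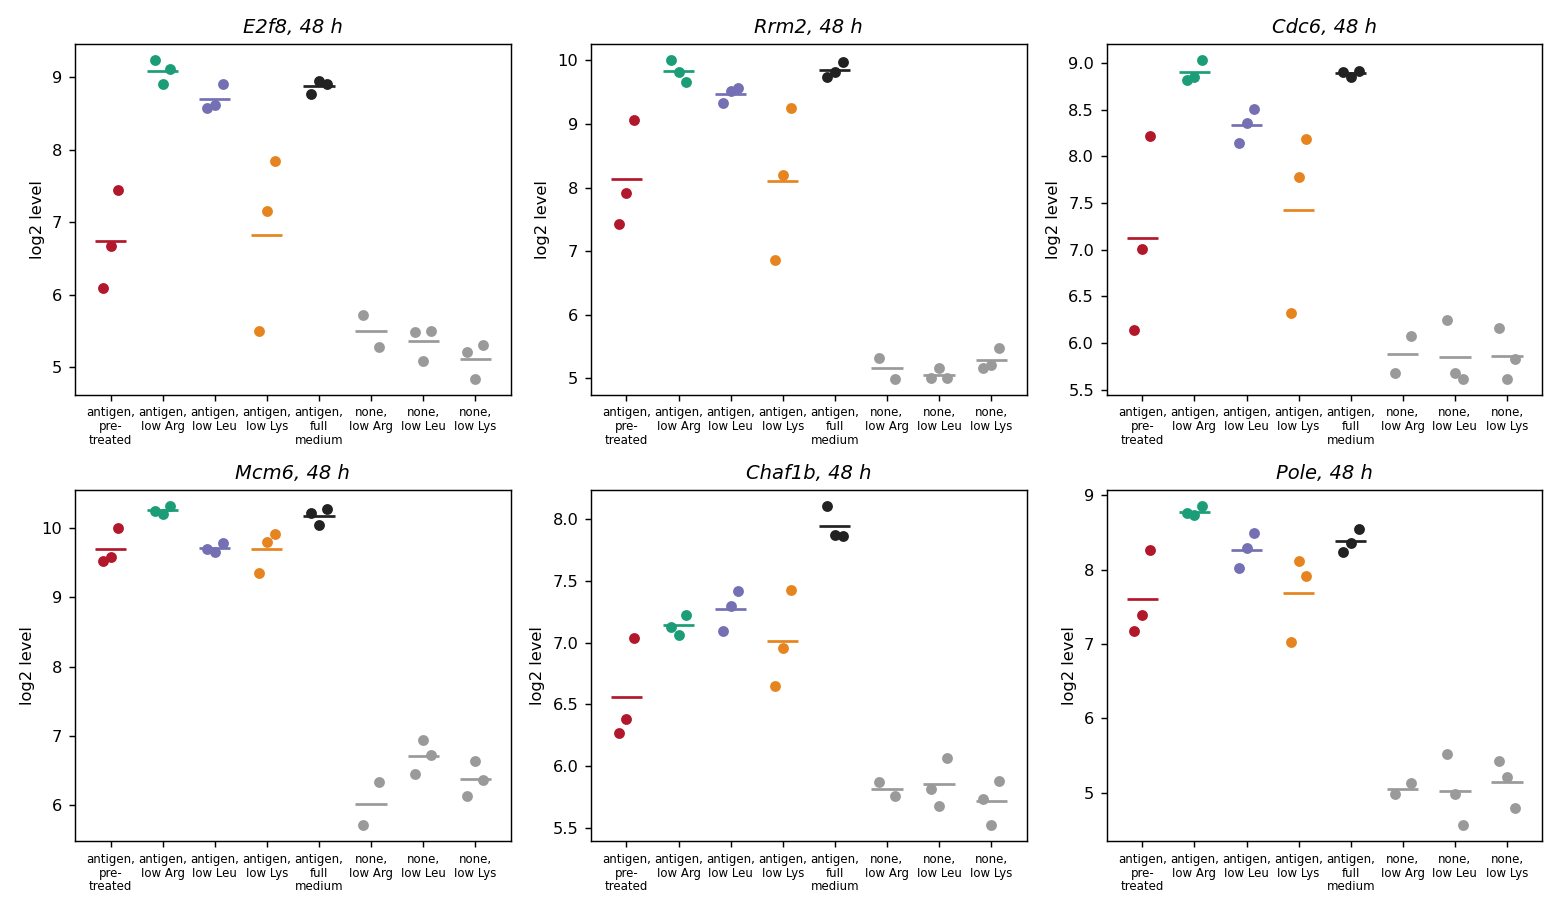
Log2 levels of 6 members on each 48 h array, by group. E2f8, Rrm2 and Cdc6 lie low and spread with pretreatment and in low lysine, Chaf1b is lower than in full medium in every other group, and Mcm6 varies little between the antigen groups.

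At 72 h fewer members were called with the same pretreatment. Of 43 members 10 fell and none rose, while 5.91% of all genes fell and 3.78% rose, and the median member differed by -0.60, against 0.02 over all genes. The pretreated arrays lay below all untreated ones in 17 of 43 members (13.3% of all genes). Nucleotide genes fell in 3 of 5 cases (Rrm1, Tk1 and Dut), fork genes in 5 of 16 (Rfc2, Rfc5, Prim2, Fen1 and Rpa1), licensing genes in 1 of 11 (Orc1), firing genes in 1 of 7 (Dbf4), and none of 4 E2F or chromatin copying genes passed the limma test, though E2f8 and Uhrf1 had unadjusted p-values of 0.0226 and 0.0336.

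Tk1, which salvages thymidine, was at 7.28, 8.92 and 8.32 with pretreatment, against 9.66, 10.25 and 10.00 on untreated macrophages (-1.80 ± 0.34, adjusted p = 0.0101). The flap nuclease Fen1, which trims the ends of lagging strand fragments, was at 7.06, 8.27 and 7.73, against 8.60, 9.53 and 8.94 on untreated macrophages (-1.34 ± 0.34, adjusted p = 0.0308). Orc1 was at 5.32, 6.63 and 6.07, against 6.97, 7.60 and 7.35 on untreated macrophages (-1.30 ± 0.31, adjusted p = 0.026). In all 3 genes no pretreated array reached the lowest untreated one, and the first pretreated array was the lowest and the second the highest. Rfc5 was at 7.52, 8.72 and 8.12, against 8.99, 9.22 and 9.26 on untreated macrophages (-1.04 ± 0.25, adjusted p = 0.0278). Rrm1 was at 9.06, 10.24 and 9.73, against 10.30, 10.85 and 10.78 on untreated macrophages (-0.97 ± 0.25, adjusted p = 0.0373), and its groups did not overlap.

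The helicase subunits Mcm2 to Mcm7 were not called at 72 h, with estimates between -0.11 and 0.36 and a median of -0.02, beside a median of -0.64 over the other 37 members, a split made after the values had been seen. Mcm5 was at 9.35, 9.89 and 10.03 with pretreatment, against 9.37, 9.91 and 9.72 on untreated macrophages (0.09 ± 0.22, adjusted p = 0.862). Mcm6 was at 10.43, 10.96 and 11.03, against 10.66, 10.92 and 10.93 on untreated macrophages (-0.03 ± 0.16, adjusted p = 0.944). The groups overlapped in both.

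Leaving out 1 array moved this count. Without the second pretreated array 22 members fell, without the first or the third 1 did, and without the first, the second or the third untreated array 5, 2 and 1 did. When only the arrays of both groups entered the fit, Tk1 alone was called (3.53% of all genes lower). Same-numbered arrays of these groups deviated together, and with the replicate as a block 10 members fell over those arrays (5.22% of all genes) and 14 with all 72 h arrays in the fit (6.56%). Mesothelial and stromal markers averaged 6.31, 4.66 and 4.93 on the pretreated arrays, against 4.31 to 4.68 on the untreated ones, and were highest on the pretreated array on which the members were lowest. That array's share in the differences was measured by leaving it out, as above, and the part of the markers was not tested.

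Of the 42 members measured at both times, 39 had a negative estimate with pretreatment at both, 10 were called lower at both, 26 at 48 h alone and none at 72 h alone. These counts over both times were not made for all genes, so no share stands beside them. The times were on different array types and share no sample, and the difference between them was not tested.

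**Figure D3:**
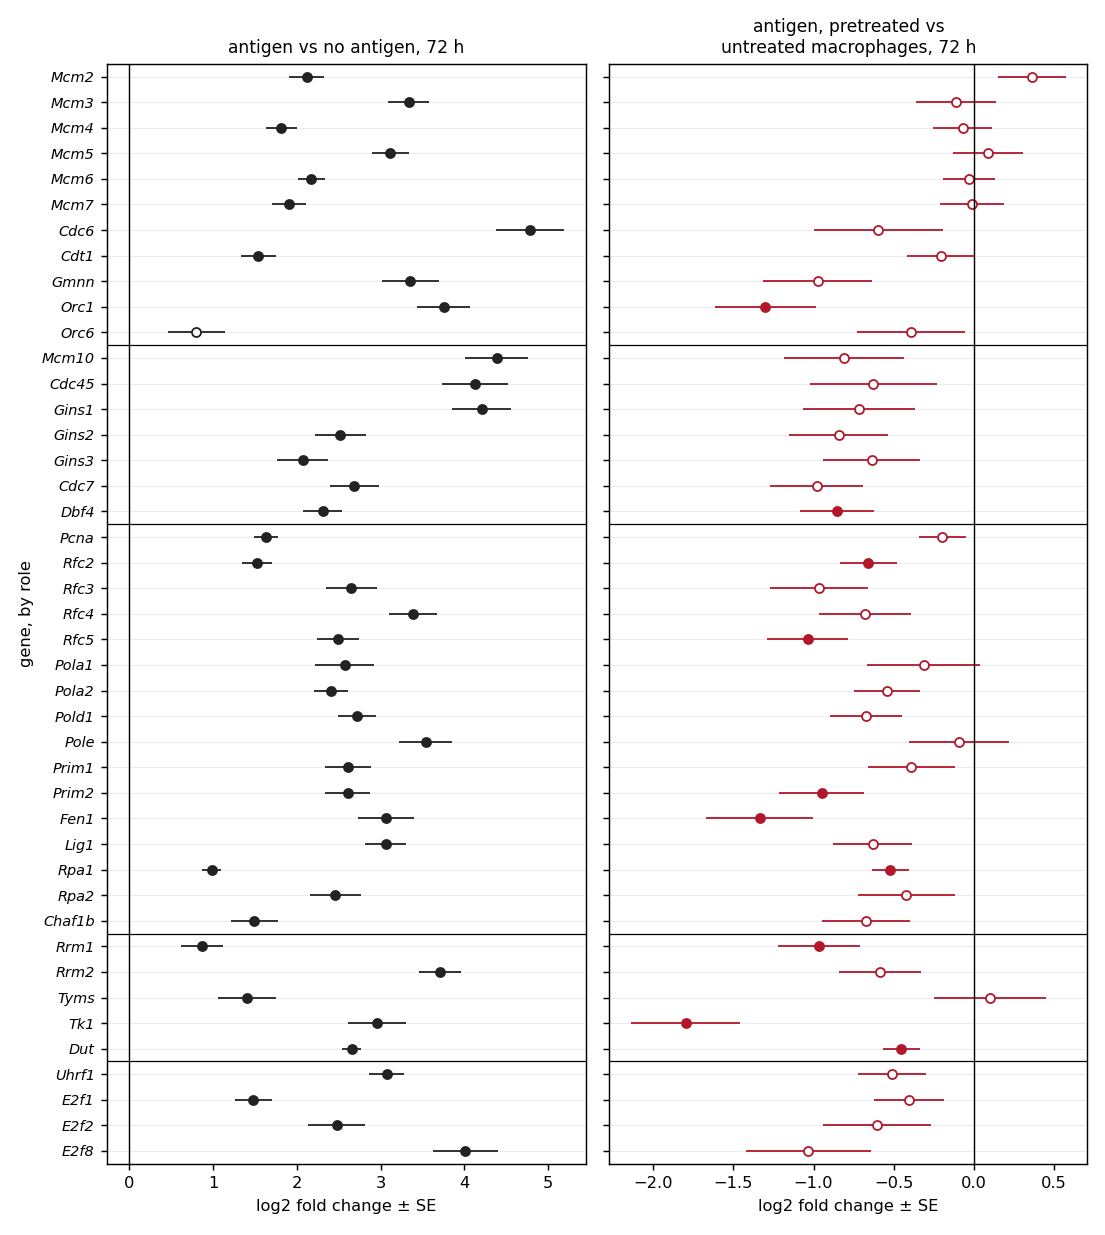
Log2 differences of each measured member at 72 h, for antigen on untreated macrophages against no antigen and for pretreated against untreated macrophages, ordered by role. Bars are SE and filled points are called (adjusted p under 0.05). All antigen estimates lie above 0, between 0.80 and 4.78, and the pretreatment estimates lie between -1.80 and 0.36, those of Mcm2 to Mcm7 close to 0.

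Low lysine also lowered most of the members at 48 h. Of 43 members 34 fell against full medium and none rose, while 6.24% of all genes fell and 2.49% rose, and the median member differed by -0.87, against 0.02 over all genes. The low lysine arrays lay below all full medium arrays in 40 of 43 members (16% of all genes). Firing genes fell in 7 of 7 cases, nucleotide genes in 5 of 5, licensing genes in 8 of 11, E2F or chromatin copying genes in 3 of 4 and fork genes in 11 of 16.

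E2f8 was at 5.50, 7.15 and 7.84 in low lysine, against 8.76, 8.94 and 8.91 in full medium (-2.04 ± 0.37, adjusted p = 0.00141). Rrm2 was at 6.85, 8.20 and 9.25, against 9.73, 9.82 and 9.98 in full medium (-1.74 ± 0.38, adjusted p = 0.00566), and its other probe set gave -1.80. Cdc6 was at 6.32, 7.78 and 8.19, against 8.90, 8.85 and 8.92 in full medium (-1.46 ± 0.39, adjusted p = 0.0195). In each gene the first low lysine array was far below the others and the third was nearest to full medium. Chaf1a was at 6.40, 7.01 and 7.79, against 8.43, 8.42 and 8.37 in full medium (-1.34 ± 0.31, adjusted p = 0.00819). Mcm10 was at 6.61, 7.19 and 7.72, against 8.40, 8.5 and 8.5 in full medium (-1.29 ± 0.27, adjusted p = 0.00438). The spread between low lysine arrays was again wider than that between full medium arrays.

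The 9 members not called in low lysine had estimates between -0.85 and -0.22, and 3 of them are helicase subunits. Mcm2 was at 8.76, 9.36 and 9.39 in low lysine, against 9.40, 9.36 and 9.41 in full medium (-0.22 ± 0.14, adjusted p = 0.357). Mcm5 was at 8.08, 8.81 and 8.79, against 9.15, 9.02 and 9.10 in full medium (-0.53 ± 0.19, adjusted p = 0.0911). Mcm6 was at 9.35, 9.80 and 9.92, against 10.21, 10.04 and 10.28 in full medium (-0.49 ± 0.18, adjusted p = 0.0888). The groups overlapped in Mcm2 and not in Mcm5 or Mcm6, and in all 3 genes the first low lysine array was the lowest. Among the polymerase and primase genes, Pold1 was at 7.69, 8.12 and 8.36, against 8.56, 8.85 and 8.92 in full medium (-0.72 ± 0.24, adjusted p = 0.0636). Pole was at 7.02, 8.11 and 7.92, against 8.23, 8.36 and 8.54 in full medium (-0.69 ± 0.27, adjusted p = 0.115). Prim2, the large primase subunit, was at 6.66, 7.40 and 7.92, against 8.15, 8.13 and 8.25 in full medium (-0.85 ± 0.27, adjusted p = 0.053). These 3 genes did not overlap between groups. Prim1 was at 7.98, 8.65 and 9.0, against 9.16, 9.06 and 9.0 in full medium (-0.53 ± 0.25, adjusted p = 0.199), its highest low lysine array level with the lowest full medium one. Rfc2 and E2f1 differed by -0.58 ± 0.23 and -0.42 ± 0.20 (adjusted p = 0.12 and 0.192).

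The first low lysine array weighed on this count, which was 15 without it, 22 without the third full medium array and between 23 and 39 without any other. With only the arrays of the 2 groups in the fit, 19 members fell (3.16% of all genes). B cell markers averaged 6.53, 5.82 and 5.54 on the low lysine arrays, against 5.20 to 5.27 in full medium, and 6 of 9 rose. They were highest on the array on which the members were lowest, and their part was not tested.

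In low arginine few members were called against full medium with the spread taken from all 48 h arrays. The median SD of a member was 0.117 in low arginine and 0.0937 in full medium, against 0.419 with pretreatment and 0.428 in low lysine. Of 43 members 2 fell and none rose, while 3.17% of all genes fell and 1.51% rose, and the median member differed by -0.06, against 0.01 over all genes. Low arginine arrays lay below all full medium arrays in 14 members (15.7% of all genes) and above them in 5 (11.8%). Chaf1b was at 7.13, 7.06 and 7.23 in low arginine, against 8.10, 7.87 and 7.86 in full medium (-0.81 ± 0.19, adjusted p = 0.0135). Fen1 was at 6.85, 6.65 and 6.93, against 7.43, 7.30 and 7.93 in full medium (-0.74 ± 0.20, adjusted p = 0.0294), and its other probe set gave -0.31. The groups did not overlap in either gene. E2f8, whose fall in low lysine was the largest, was at 9.24, 8.91 and 9.11 in low arginine, against 8.76, 8.94 and 8.91 in full medium (0.21 ± 0.37, adjusted p = 0.867). Cdc6 was at 8.81, 8.85 and 9.03, against 8.90, 8.85 and 8.92 in full medium (0.01 ± 0.39, adjusted p = 0.997). The groups overlapped in both. The 95% intervals, -0.55 to 0.98 for E2f8 and -0.79 to 0.81 for Cdc6, allow differences of over 0.5 in either direction. They rest on the spread of all 48 h arrays, which is wider than that of these groups. The SD in low arginine and full medium was 0.166 and 0.0964 for E2f8, and 0.117 and 0.0331 for Cdc6. No member was called without the first full medium array or without the first or second low arginine array, and 1 without the third array of either group. With only the arrays of the 2 groups in the fit, 9 members fell (Gmnn, Orc1, Rfc2, Rfc5, Pola2, Fen1, Chaf1b, Rrm1 and Tk1, 7.61% of all genes) and Pole rose (3.54%). T cell markers averaged 10.49 to 10.59 in low arginine, against 10.25 to 10.30 in full medium. B cell markers averaged 5.38 to 5.69, against 5.20 to 5.27, and macrophage markers 6.35 to 6.56, against 6.51 to 6.57. The part of these markers was not tested.

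Low leucine lay between these. Of 43 members 2 fell and none rose, while 1.56% of all genes fell and 1.15% rose, and the median member differed by -0.37, against 0.0017 over all genes. Every estimate was below 0, between -0.78 and -0.03, and low leucine arrays lay below all full medium arrays in 28 of 43 members (12.9% of all genes). Gins1 was at 7.41, 7.67 and 7.54 in low leucine, against 7.96, 8.60 and 8.40 in full medium (-0.78 ± 0.21, adjusted p = 0.0464). Orc1 was at 7.05, 7.67 and 7.55, against 8.08, 8.08 and 8.32 in full medium (-0.73 ± 0.19, adjusted p = 0.0405). The arrays of both genes were separate by group, with adjusted p close to the threshold. The count was 1 without the first full medium or the second low leucine array and 0 without any of the other 4. With only the arrays of the 2 groups in the fit, 22 members fell (4.45% of all genes). Median-centred arrays gave 0. The comparisons of the 3 low media and of pretreatment at 48 h share the full medium arrays, and those between media share arrays with each other.

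**Figure D4:**
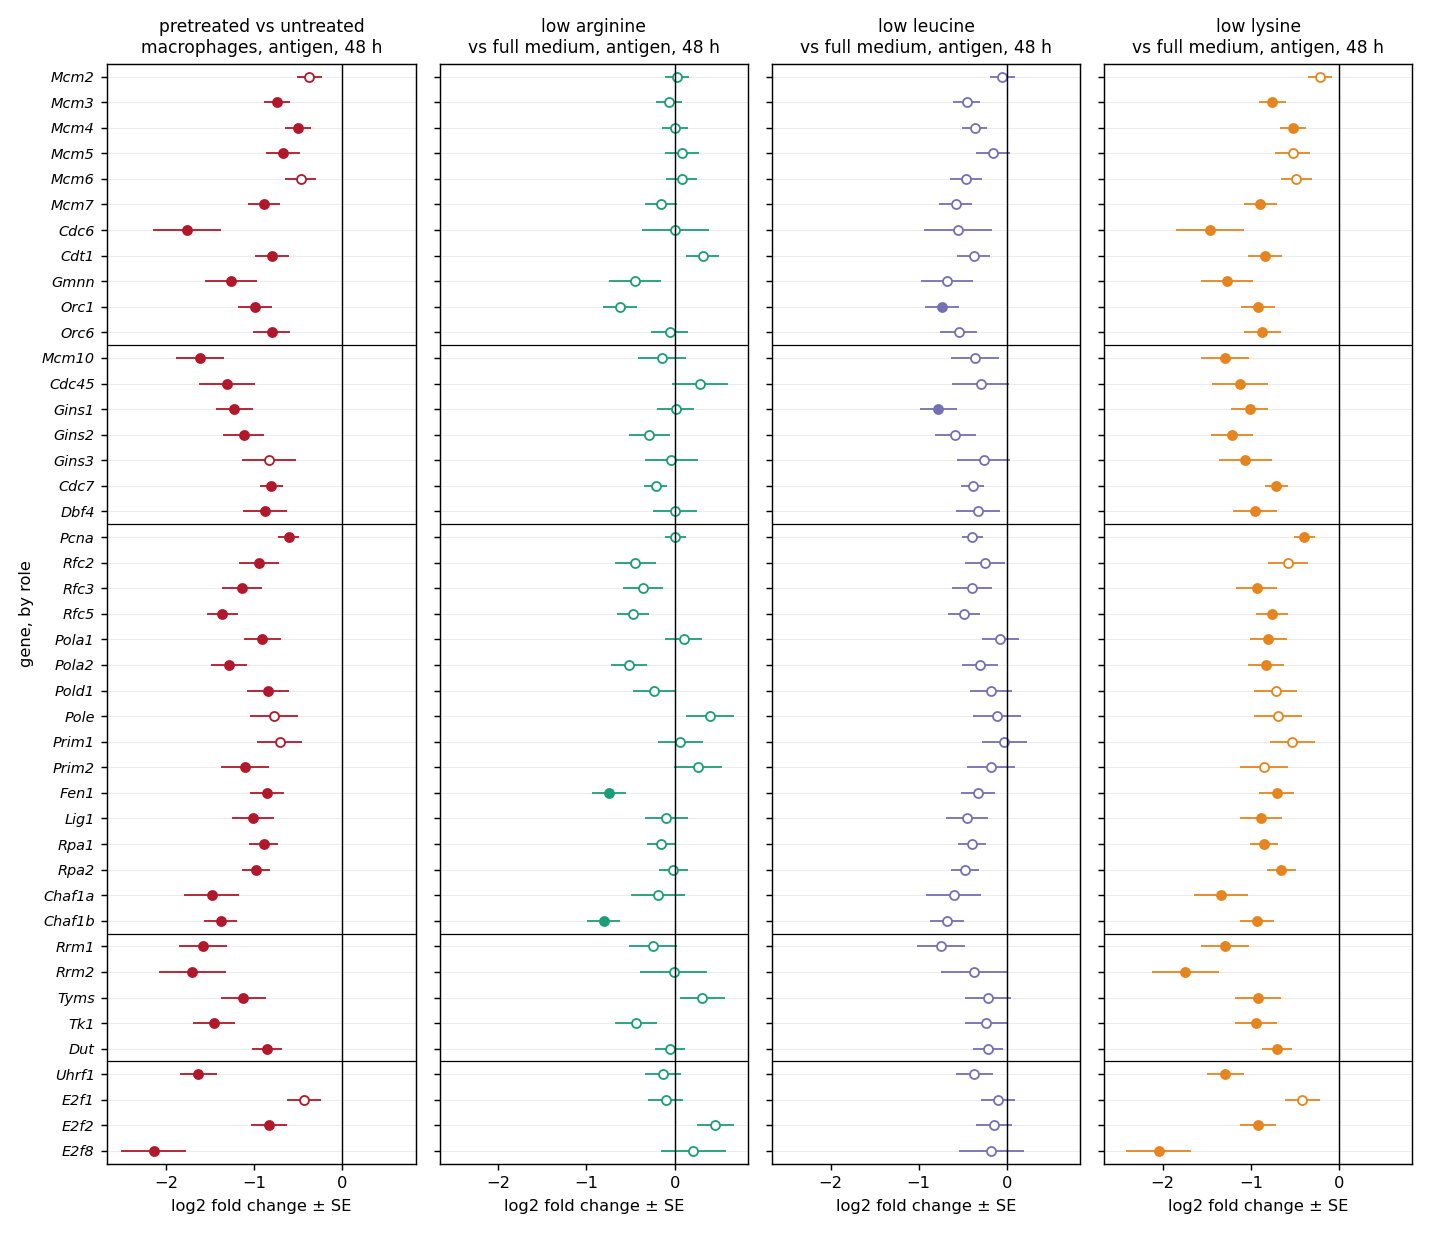
Log2 differences of each measured member at 48 h, for pretreated macrophages, low arginine, low leucine and low lysine, each against full medium on untreated macrophages, ordered by role, with SE bars and filled points for called members. Medians are -0.95, -0.06, -0.37 and -0.87, and only the low arginine panel holds estimates on both sides of 0.

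The low media were also compared with each other. Between low arginine and low lysine, 25 of 43 members were higher in low arginine and none lower, while 2.65% of all genes were higher and 0.577% lower, and the median member differed by 0.74, against -0.03 over all genes. Low arginine arrays lay above all low lysine arrays in 33 members (10.7% of all genes). E2f8 differed by 2.25 ± 0.37 (adjusted p = 0.00132), Rrm2 by 1.73 ± 0.38 (adjusted p = 0.0109) and Cdc6 by 1.47 ± 0.39 (adjusted p = 0.0348), with the values given above. Cdc45 was at 9.5, 9.28 and 9.64 in low arginine, against 7.13, 8.23 and 8.82 in low lysine (1.41 ± 0.32, adjusted p = 0.0135). E2f2 was at 7.04, 6.55 and 7.03, against 5.30, 5.46 and 5.71 in low lysine (1.38 ± 0.21, adjusted p = 0.000768). Neither gene's groups overlapped, and E2f2 was even within low lysine where Cdc45 was not. The count was 7, 9 and 7 without the first, the second and the third low arginine array and 4 without the first low lysine array. It was 4 with only the arrays of the 2 groups in the fit (Cdt1, Gins2, Uhrf1 and E2f2, 0.555% of all genes). Of 9 B cell markers 1 was called lower in low arginine and 3 were lower at an unadjusted p under 0.05, and their part was not tested. No share of all genes at the unadjusted level stands beside that count.

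Between low leucine and low lysine, 2 members were higher in low leucine and none lower, while 1.59% of all genes were higher and 0.289% lower, and the median member differed by 0.50. At an unadjusted p under 0.05, 23 members were higher (10.1% of all genes). E2f8 was at 8.58, 8.61 and 8.90 in low leucine, against 5.50, 7.15 and 7.84 in low lysine (1.87 ± 0.37, adjusted p = 0.00936). Uhrf1 was at 9.36, 9.27 and 9.51, against 7.98, 8.71 and 8.69 in low lysine (0.92 ± 0.21, adjusted p = 0.0254). The groups were separate in both genes. Counts ran between 0 and 15 with 1 array left out, 15 without the third and 0 without the first low lysine array or the third low leucine array, and 1 without the first or second low leucine array. No member was called by limma with only the arrays of the 2 groups in the fit (0.185% of all genes higher). B cell markers averaged 5.30 to 5.36 in low leucine, against 6.53, 5.82 and 5.54 in low lysine. Of 9 such markers 1 was called lower and 7 were lower at an unadjusted p under 0.05, and their part was not tested. No share of all genes lower at the unadjusted level stands beside that count.

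Between low arginine and low leucine no member was called by limma (0.234% of all genes higher in low arginine and 0.478% lower), with 10 higher and 1 lower at an unadjusted p under 0.05 (3.79% and 5.79% of all genes). The median member was 0.30 higher in low arginine, and low arginine arrays lay above all low leucine arrays in 27 of 43 members (8.78% of all genes). Gins1 was at 8.31, 8.32 and 8.35 in low arginine, against 7.41, 7.67 and 7.54 in low leucine (0.79 ± 0.21, adjusted p = 0.0956). Cdt1 was at 8.84, 8.75 and 9.10, against 8.19, 8.12 and 8.29 in low leucine (0.69 ± 0.19, adjusted p = 0.104). Same-numbered arrays of these groups deviated together. With the replicate as a block, 2 members were higher in low arginine over all 48 h arrays (Cdt1 and Gins1, 0.343% of all genes) and 17 over the arrays of both groups (2.32%). Without the block, the arrays of both groups alone gave 13 (1.43%).

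Pretreatment was set beside each low medium. Against low arginine 28 members were lower with pretreatment and none higher, while 1.85% of all genes were lower and 1.52% higher, and the median member differed by -0.81. E2f8 differed by -2.35 ± 0.37 (adjusted p = 0.00078), Cdc6 by -1.78 ± 0.39 (adjusted p = 0.00949) and Cdc45 by -1.60 ± 0.32 (adjusted p = 0.00543). Cdc45 was at 7.27, 7.52 and 8.84 with pretreatment, all below low arginine. Rrm2 and Uhrf1 differed by -1.69 ± 0.38 and -1.5 ± 0.21 (adjusted p = 0.0116 and 0.000194). The pretreated arrays lay below all low arginine arrays in 37 of 43 members (9.22% of all genes). The count was 13 and 16 without the first and second pretreated array and 18 without the third low arginine array. Macrophage markers were higher with pretreatment in 6 of 20 cases, and their part was not tested.

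Against low leucine 12 members were lower with pretreatment and none higher, while 3.47% of all genes were lower and 2.45% higher. E2f8 differed by -1.96 ± 0.37 (adjusted p = 0.00207), Rrm2 by -1.34 ± 0.38 (adjusted p = 0.0368) and Tk1 by -1.22 ± 0.24 (adjusted p = 0.00298). Tk1 was at 6.65, 7.01 and 8.09 with pretreatment, against 8.49, 8.34 and 8.58 in low leucine. Its groups did not overlap. Uhrf1 and Mcm10 differed by -1.27 ± 0.21 and -1.26 ± 0.27 (adjusted p = 0.000605 and 0.00664). The count was 5 and 6 without the first and second pretreated array, 27 without the third, and 7 and 6 without the second and the third low leucine array. Macrophage markers were higher with pretreatment in 10 of 20 cases, and their part was not tested.

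Against low lysine no member was called by limma, while 0.757% of all genes were lower and 2.78% higher, and 4 members were lower at an unadjusted p under 0.05 (6.7% of all genes). The median member differed by -0.14, and no member's arrays were separate by group, against 8.75% of all genes below and 8.9% above. Cdc6, for example, was at 6.14, 7.01 and 8.22 with pretreatment and 6.32, 7.78 and 8.19 in low lysine (-0.30 ± 0.39, adjusted p = 0.765). The 95% interval of that difference runs from -1.10 to 0.49, so likeness of the 2 conditions is not shown. Of the 48 h groups, these 2 had the widest spread of members between replicates. Without the third pretreated array or the first low lysine array 2 members were called. Macrophage markers were higher with pretreatment in 10 of 20 cases and B cell markers lower in 3 of 9, and their part was not tested. Over the 5 antigen groups of 48 h, the group mean was highest in full medium in 26 members and in low arginine in 17, and lowest with pretreatment in 31 and in low lysine in 12. How all genes divide in this way was not counted.

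**Figure D5:**
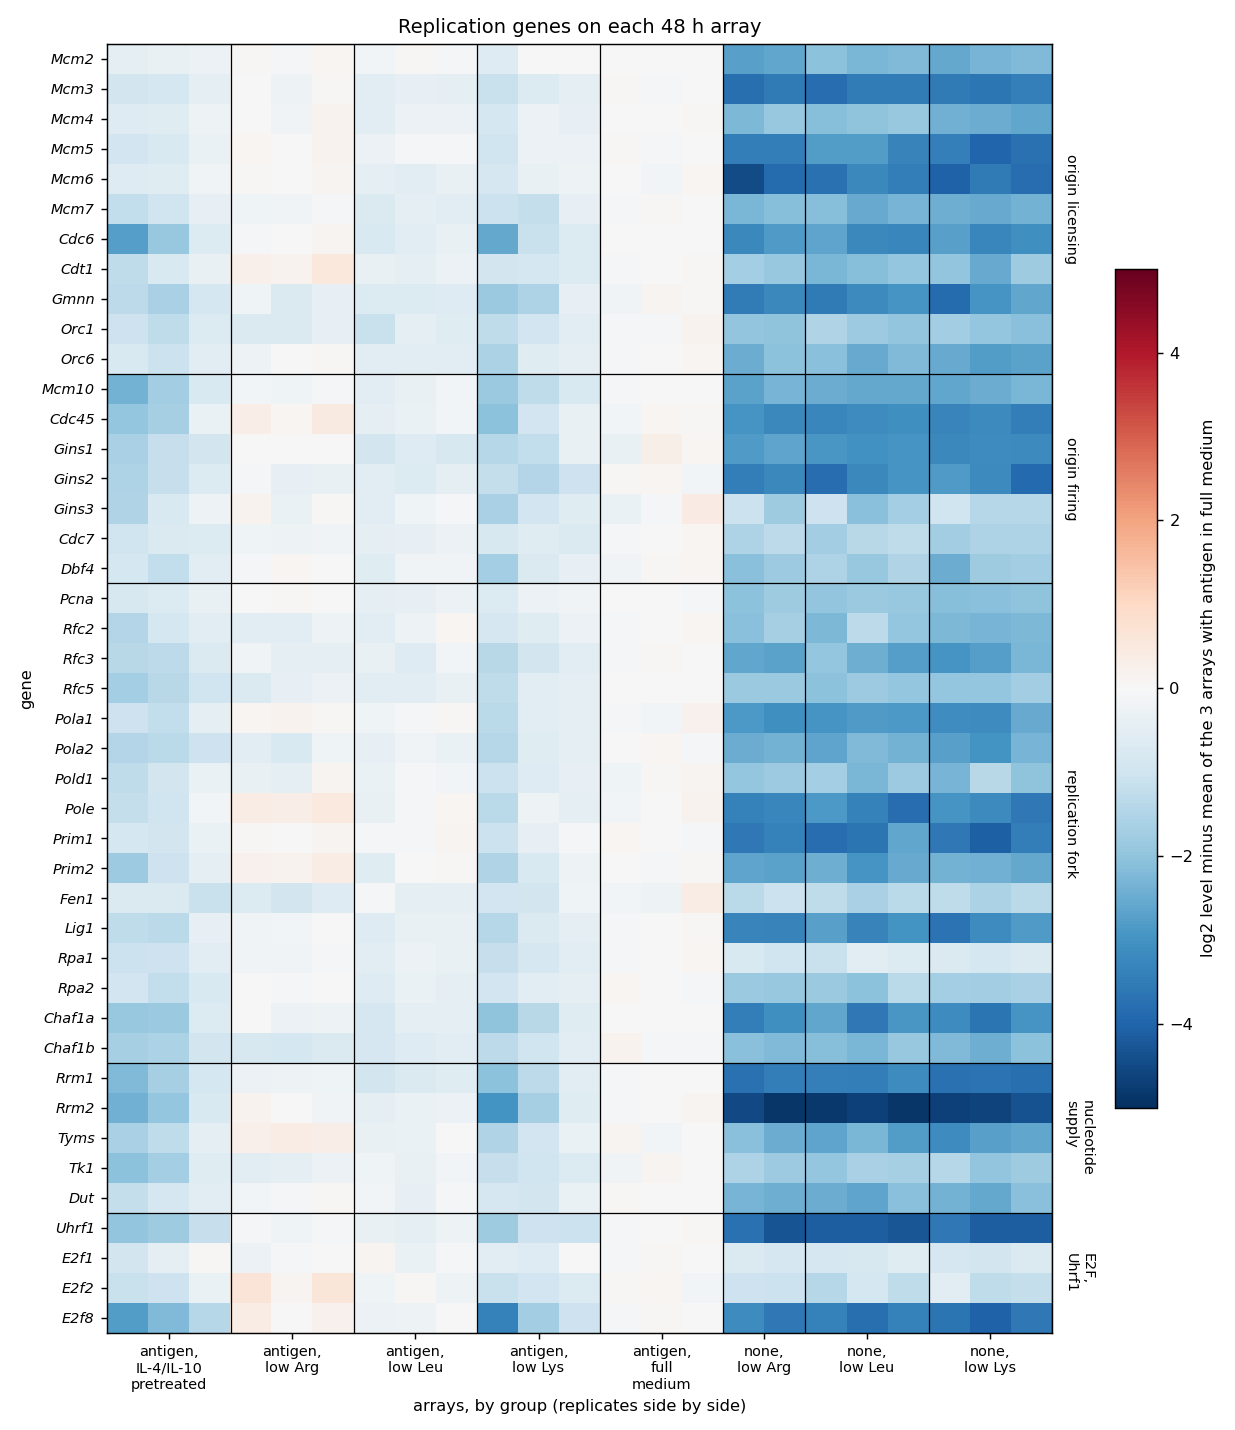
Log2 level of each measured member on each 48 h array, relative to the mean of the full medium arrays, with members in rows by role and arrays in columns by group. The arrays without antigen are low throughout, low arginine is pale in most rows as full medium is, and pretreated and low lysine arrays are graded from low to nearly level within each group.

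Other genes of the same pathway, from lists drawn up with earlier results of these data known, were counted as well. Of 30 further replication genes at 72 h, 28 rose with antigen on untreated macrophages (20.7% of all genes), led by Clspn, a checkpoint adaptor at the fork (4.18 ± 0.36, adjusted p = 4.72e-06), and Atad5, which unloads the clamp (3.46 ± 0.26, adjusted p = 2e-06). With pretreatment at 48 h 18 of 34 fell (5.93% of all genes) and none rose, among them Dna2, a nuclease of the lagging strand (-1.63 ± 0.30, adjusted p = 0.00132), and Ticrr, which brings Cdc45 to origins (-1.45 ± 0.29, adjusted p = 0.00226). With pretreatment at 72 h 5 of 30 fell (5.91% of all genes), with Dna2 again the largest at -1.54 ± 0.30 (adjusted p = 0.0113). Low lysine lowered 14 of 34 (6.24% of all genes), low arginine 1 (Rpa3, -0.81 ± 0.22, adjusted p = 0.0292, beside 3.17% of all genes) and low leucine none by limma (1.56% of all genes). In low leucine 6 of 34 were lower and 1 higher at an unadjusted p under 0.05, against 6.89% and 5.44% of all genes.

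Further genes of nucleotide supply rose with antigen in 7 of 10 cases at 72 h (20.7% of all genes), among them Dctpp1, which clears damaged nucleotides (1.80 ± 0.26, adjusted p = 0.000219). With pretreatment at 48 h 6 of 11 fell (5.93% of all genes), led by Shmt1, an enzyme of folate metabolism that serves thymidylate synthesis (-1.34 ± 0.19, adjusted p = 9.76e-05), and Dctpp1 (-1.18 ± 0.16, adjusted p = 4.23e-05). Rrm2b, the p53-induced alternative to Rrm2, rose by 0.46 ± 0.13 (adjusted p = 0.0235). Low arginine lowered Shmt1 too (-0.89 ± 0.19, adjusted p = 0.00652), with Nt5c (-0.68 ± 0.16, adjusted p = 0.0109). There 5 of 11 were lower and 1 higher at limma's unadjusted p under 0.05, and 3.17% of all genes were lower at the adjusted level. Low lysine lowered 5 of 11 (6.24% of all genes), including deoxycytidine kinase, Dck (-1.15 ± 0.23, adjusted p = 0.00375).

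Among 26 genes of E2F and G1/S control at 72 h, antigen raised 19 and lowered 2 (20.7% and 17.4% of all genes). The S phase cyclins Ccne1, Ccne2 and Ccna2 rose by 3.14 ± 0.34, 3.39 ± 0.45 and 3.17 ± 0.41 (adjusted p = 2.28e-05, 0.00011 and 9.21e-05), and the CDK inhibitor Cdkn1b (p27) fell by 0.89 ± 0.30 (adjusted p = 0.0362). At 48 h pretreatment lowered 14 of 26 and raised 3 (5.93% and 2.71% of all genes). Ccna2 and Ccne1 fell, with differences of -1.92 ± 0.42 and -1.55 ± 0.18 (adjusted p = 0.00497 and 7.86e-06), while Cdkn1b, the D-type cyclin Ccnd2 and its kinase Cdk6 rose by 0.82 ± 0.17, 0.62 ± 0.13 and 0.61 ± 0.19 (adjusted p = 0.00295, 0.0035 and 0.0403). At 72 h pretreatment lowered 3 of 26 and raised 2 (5.91% and 3.78% of all genes). The ubiquitin ligase subunit Skp2, Mybl2 and the maintenance DNA methyltransferase Dnmt1 fell, with differences of -1.24 ± 0.32, -1.03 ± 0.24 and -0.67 ± 0.19 (adjusted p = 0.0352, 0.022 and 0.047). Ccnd2 and Cdk6 were higher with pretreatment, by 1.01 ± 0.16 and 0.73 ± 0.15 (adjusted p = 0.00512 and 0.0125).

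Each low medium was also set against full medium for these genes. Low lysine lowered 12 of 26 (6.24% of all genes), with Ccna2 at -1.97 ± 0.42 (adjusted p = 0.00504), and raised Ccnd2 by 0.59 ± 0.13 (adjusted p = 0.00673). Low arginine raised Cdkn1b by 0.78 ± 0.17 (adjusted p = 0.00706) and Tfdp2, a dimer partner of E2F proteins, by 1.11 ± 0.13 (adjusted p = 1.51e-05), and lowered E2f4 (-0.69 ± 0.15, adjusted p = 0.00833). Low leucine raised Cdkn1a (p21), another CDK inhibitor, by 1.23 ± 0.28 (adjusted p = 0.016) and lowered Ccne1 (-0.68 ± 0.18, adjusted p = 0.0409). At limma's unadjusted p under 0.05, 7 of 26 were higher and 3 lower in low arginine. In low leucine 2 were higher and 4 lower at that level, against 5.44% and 6.89% of all genes. For low arginine the adjusted shares of all genes were 1.51% higher and 3.17% lower. Between pretreatment and low lysine, where no replication member was called, Cdkn1b was higher with pretreatment by 1.07 ± 0.17 (adjusted p = 0.000504).

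Genes of mitosis, which follow S phase, were counted for comparison. With antigen on untreated macrophages at 72 h 23 of 23 rose (20.7% of all genes), with a median of 3.11. With pretreatment 23 of 24 fell at 48 h (5.93% of all genes) and 17 of 23 at 72 h (5.91%), with medians of -1.82 and -1.59. In low lysine 24 of 24 fell (6.24% of all genes), with a median of -1.89. In low leucine 2 of 24 fell (1.56% of all genes) and in low arginine 1 (3.17%), the latter near its share. The mitosis list holds none of the members, and the difference between their medians and those of the members was not tested.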

How the data were processed

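The authors deposited RMA log2 values per probe set, made with Affymetrix Expression Console 1.1 per the submitters' processing notes from 100 ng of total RNA per the labels' protocols, for 23 MoGene-2_0-st arrays (48 h) and 9 HT_MG-430_PM arrays (72 h). Which arrays were normalised together is not given in the sources used here. The number of arrays limits the precision.

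A gene took the probe set with the highest mean among those that name it alone. Each platform was fitted apart with limma 3.58.1 in R 4.3.3 (lmFit, eBayes with trend), all its groups in 1 fit, for 16 comparisons and an F test, two-sided, with Benjamini-Hochberg adjustment over all genes and a threshold of 0.05. Errors beside differences are SE. The fit was tested on simulated data with independent normal noise and the same variance of a gene in every group. It recovered 30.6% of 1.5-fold and 88.5% of 2-fold changes at 48 h, and 34.3% and 70.3% at 72 h. The unequal spread of the groups seen here was not simulated. Figures were drawn with matplotlib 3.10.9.

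The members and lists were chosen with earlier results of these data known. Every member was counted by role. Values per array were planned for up to 5 called members with the largest difference in a comparison, and for members not called where most were. Further members, such as Mcm5, Mcm6, Gmnn and Rrm1, are named to show their roles, chosen after their values were seen. Of other lists up to 4 called genes in each direction could be named.

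In 2 comparisons every array deviated most like the same-numbered array of the other group. Correlations over 5000 genes were 0.26, 0.23 and 0.16 for pretreatment at 72 h. For low arginine against low leucine they were 0.35, 0.29 and 0.39. For these 2 comparisons, counts with the replicate as a block are given beside the others. Their differences, SE and adjusted p come from the fit without a block.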

Additional observations from a re-analysis of the deposited data

Results flagged for a closer look

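In 5 members every low arginine array lay above every full medium array while every array of another condition lay below them. The 5 are all of the members above full medium in low arginine, and 11.8% of all genes were above it in the same way, so their number is near the background. None passed limma's test of low arginine against full medium with all 48 h arrays in the fit. E2f2 had an unadjusted p under 0.05 there, and Pole was called with only the arrays of both groups in the fit. All of these conditions share the full medium arrays. Since the genes were picked for lying on opposite sides of full medium, their values are a description and the difference between conditions was not tested on them.

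Cdt1, the licensing factor that geminin blocks, was at 8.84, 8.75 and 9.10 in low arginine, against 8.52, 8.57 and 8.64 in full medium, an estimate of 0.318. It was below all full medium arrays in low leucine (8.19, 8.12 and 8.29), in low lysine (7.65, 7.68 and 7.88) and with pretreatment (7.30, 7.83 and 8.20).

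Tyms had an estimate of 0.315 in low arginine, where it was at 8.89, 8.98 and 8.94, against 8.76, 8.47 and 8.63 in full medium, and lay below full medium in low lysine and with pretreatment. Prim2 and E2f2, an activating E2F, lay on the same sides, with estimates in low arginine of 0.263 and 0.459. Pole had an estimate of 0.401 and lay below full medium in low lysine, while its second probe set gave 0.15 in low arginine.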

How the results depend on the processing

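Of 235 counts of called members under the alternatives, 166 were within 1.5 times the reported count, 69 moved further and none reversed, over 17 results. Of 810 values of single genes, 719 kept their side of the threshold, 91 lost it and none reversed. These genes were the called members with the largest differences in the reported fit. None could therefore gain the threshold, and a reversal was unlikely from the start. The antigen counts of 72 h and of the 3 low media stayed within 1.5 times under every alternative run, as did that of pretreatment at 48 h, 26 to 42 with 1 array left out. Against full medium, low arginine (2) gave 1 with quantile normalisation, 1 with probe sets averaged, 10 with only the compared groups and 10 with the replicate block there, and 0 to 2 with 1 array left out. Low leucine (2) gave 0 with arrays centred on their medians, 22 with only the compared groups, 22 with the replicate block there, 4 with the block over all arrays, and 0 to 1. Low lysine (34) gave 18 with quantile normalisation, 19 with only the compared groups, and 15 to 39. Low arginine against low leucine (0) gave 1 with quantile normalisation, 13 with only the compared groups, 17 with the replicate block there and 2 with the block over all arrays. Low arginine against low lysine (25) gave 16, 4 and 5 with quantile normalisation, only the compared groups and the replicate block there, and 4 to 29. Low leucine against low lysine (2) gave 1 with quantile normalisation, 4 without the dimmest genes (a share of 0.333 left out), 0 with only the compared groups, 0 with the replicate block there, 6 with the block over all arrays, 5 with runs of 6 consecutive submitter numbers as a block, and 0 to 15. Pretreatment gave 13 to 34 against low arginine (28). Against low leucine (12) it gave 20 without the dimmest genes, 20 with the replicate block over all arrays, and 5 to 27. Against low lysine (0) it gave 1 with quantile normalisation, 1 without the dimmest genes, 1 with that block, and 0 to 2. The F test (0) gave 0 to 5. Pretreatment at 72 h (10) gave 6 with probe sets averaged, 1 with only the compared groups, and 1 to 22. The block over all arrays was added after seeing the data. In the other comparisons, same-numbered replicates are not known to share more than the number. Pairing was looked for by replicate number alone, which in low lysine does not follow the order of the submitters' sample numbers. The correlations were not made by runs of those numbers. The causes of these shifts were not tested. A fit of the compared groups has fewer arrays and leaves the other groups out of the estimate of spread. With 3 arrays a group, differences near the spread could not be called.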
